A study of Mus musculus with 18 samples.

Results

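The immediate early genes Fos, Fosb, Jun, Junb, Egr1, Ier2, Atf3, Dusp1, Nr4a1 and Zfp36 were followed in ovaries of female offspring of dams fed a high-methionine or a control diet. The 10 genes were taken by symbol from 30172 genes listed in every library, and all 10 were found. Ovaries were collected on postnatal day 3, 7 or 21 (Pd3, Pd7, Pd21), and RNA-seq of whole ovaries gave 18 libraries, 3 for each of 6 groups. All animals were wild-type C57BL/6J mice. Dams of the F1-HHcy groups received a diet with 3% methionine that raises homocysteine in blood, from before mating through pregnancy and lactation, and dams of the F1-Control groups received normal chow. The labels give 4 weeks of diet before mating, the study's methods a longer period. The offspring themselves were not treated. Whether a library was made from 1 pup or a pool was not stated. Pd3 and Pd7 libraries were prepared in batch 1 and Pd21 libraries in batch 2, so each diet comparison lies within a batch, while Pd21 and batch cannot be told apart.

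Immediate early genes are switched on within minutes of a stimulus, without new protein synthesis, by kinase cascades that act on factors already bound at their promoters. Fos, Fosb, Jun and Junb encode subunits of the AP-1 transcription factor, Egr1 encodes a zinc finger factor and Nr4a1 an orphan nuclear receptor, and Atf3 is a stress-induced bZIP factor. Ier2 is a small nuclear protein, Dusp1 is the phosphatase that switches MAP kinases off, and Zfp36 (tristetraprolin) binds AU-rich elements and speeds the decay of short-lived mRNAs. In the adult ovary several of them respond to gonadotropin in granulosa cells. In any tissue they also respond to dissection and warming between death and lysis, so each library is shown singly.

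Within groups the 10 genes moved together over the 18 libraries, with a median pairwise correlation of 0.91. Without replicate 3 of F1-HHcy Pd3 and of F1-HHcy Pd7 it was 0.58, and within batch 2 it was 0.44. Their promoters are shown as a description. The TATA box aside, the motifs searched are those through which kinases are known to act on such genes. Whether the motifs have a part in the shared movement was not tested. RefSeq promoter sequences of the mouse build GRCm38.p6, 300 bases each with 250 before the start site, were at hand for 8 of the 10 genes, all but Egr1 and Ier2. The core of the cAMP response element, TGACG, searched on both strands, stood in 6 of these 8 promoters (Fos, Fosb, Junb, Atf3, Dusp1 and Nr4a1), against 20.8% of all 32851 promoters in the set. The full palindrome TGACGTCA, which contains that core, was found in 1 of 8, that of Dusp1, against 1.79% of all. A CArG box, the core of the serum response element, was found in 1 of 8, that of Zfp36, against 1.63%. Neither AP-1 site, TGACTCA or TGAGTCA, was in any of the 8, against 5.20%. The string of the TATA box, TATAAA, searched on the coding strand, was in 2 of 8 (Fos and Junb), against 8.32%. Counted from the start site, it lay at bases -33 to -28 in Fos, and in Junb on the start site itself, at bases 0 to 5. A match is a string of letters in a short window and not a site of binding. The GC content of the 8 promoters was 58.7% to 72.3%, against a median of 52.7% for all promoters, and TGACG contains CG. The part of base composition in these counts was not tested.

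The 180 bases before the start site follow for 6 genes, 5′ to 3′ on the strand of the gene, with capitals for each motif named above.
Fos, chr12:85473710-85473889, plus strand: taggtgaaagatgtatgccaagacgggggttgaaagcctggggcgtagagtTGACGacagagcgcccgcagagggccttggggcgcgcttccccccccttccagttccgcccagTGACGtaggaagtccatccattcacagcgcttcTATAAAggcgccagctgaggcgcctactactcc
Fosb, chr7:19310046-19310225, minus strand: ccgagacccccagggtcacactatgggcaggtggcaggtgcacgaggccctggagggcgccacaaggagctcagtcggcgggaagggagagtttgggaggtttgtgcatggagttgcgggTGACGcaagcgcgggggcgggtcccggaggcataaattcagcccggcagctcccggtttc
Dusp1, chr17:26508473-26508652, minus strand: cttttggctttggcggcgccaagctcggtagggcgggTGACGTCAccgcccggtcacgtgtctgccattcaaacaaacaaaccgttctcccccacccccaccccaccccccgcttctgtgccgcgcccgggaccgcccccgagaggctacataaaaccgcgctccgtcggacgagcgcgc
Nr4a1, chr15:101266666-101266845, plus strand: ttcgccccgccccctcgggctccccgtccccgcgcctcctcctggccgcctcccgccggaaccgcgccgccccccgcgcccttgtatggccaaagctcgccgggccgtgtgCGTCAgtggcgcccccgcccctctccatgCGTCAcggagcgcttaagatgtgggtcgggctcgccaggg
Atf3, chr1:191183334-191183513, minus strand: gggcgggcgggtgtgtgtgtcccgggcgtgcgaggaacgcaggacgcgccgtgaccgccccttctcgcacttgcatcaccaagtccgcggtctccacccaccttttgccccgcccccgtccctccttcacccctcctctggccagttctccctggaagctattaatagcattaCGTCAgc
Zfp36, chr7:28379229-28379408, minus strand: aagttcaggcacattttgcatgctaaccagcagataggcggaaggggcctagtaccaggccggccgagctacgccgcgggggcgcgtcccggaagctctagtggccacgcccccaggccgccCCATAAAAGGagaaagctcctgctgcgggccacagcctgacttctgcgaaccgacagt
The capitals in Fos mark 2 TGACG cores and a TATA box, in Fosb 1 core, in Dusp1 the full palindrome, in Nr4a1 and Atf3 the core read on the opposite strand, and in Zfp36 the CArG box, which both strands match.

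Libraries held 33630641 to 39399281 fragments in all. Defining markers of germ cells, granulosa cells and stroma were present in every group, with summed levels of 414 to 1163 FPKM for 7 germ cell markers and 141 to 1289 FPKM for 6 granulosa markers. These sums differed between the diets. Granulosa markers summed to 141 to 144 FPKM in F1-Control Pd3 and 200 to 430 in F1-HHcy Pd3, and to 186 to 428 and 430 to 729 at Pd7. Germ cell markers summed to 465 to 570 and 671 to 827 at Pd3, and to 673 to 1163 and 414 to 738 at Pd7. Single markers could go against the sum, as Ddx4 did at Pd3 (20.6 to 21.9 in F1-Control and 10.3 to 16.4 in F1-HHcy). Markers of other cells were uneven as well. The sum of 6 erythroid markers was 3914 to 11214 FPKM in F1-Control Pd3, 780 to 1108 in F1-HHcy Pd3, 925 to 5760 in F1-Control Pd7 and 287 to 502 in F1-HHcy Pd7. The sum of 5 granulocyte markers was 238 to 928, 8.61 to 121, 14.9 to 286 and 0.545 to 21.6 FPKM in the same order, nearly all of it S100a8 and S100a9, while Ly6g was at 0 in 10 of 18 libraries. The 4 oviduct markers summed to 61.0 to 422 FPKM in F1-Control Pd21 and to 1.21 to 3.15 FPKM in F1-HHcy Pd21. In bulk ovary, fewer cells of a type and less RNA per cell cannot be told apart.

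At Pd3 the immediate early genes were abundant in the ovaries of control offspring. The AP-1 gene Fos was at 44.5, 53.6 and 38.4 FPKM (fragments per kilobase, scaled to library size) in F1-Control Pd3 replicates 1 to 3. Its heterodimer partner Jun was at 53.8, 99.1 and 83.5 FPKM, and Egr1, the highest of the 10 in this group, at 114, 94.6 and 88.0 FPKM. The highest library of this group was 1.4-fold the lowest for Fos, 1.84-fold for Jun and 1.29-fold for Egr1. Fosb (7.62, 7.93 and 5.25 FPKM), Junb (13.5, 21.8 and 17.5 FPKM) and Ier2 (57.8, 38.2 and 40.8 FPKM) varied to a similar degree. Among the negative regulators, Dusp1 was at 9.84, 14.5 and 10.9 FPKM and Zfp36 at 21.2, 28.6 and 23.2 FPKM. Nr4a1 was the lowest of the 10 on the mean of this group, at 5.72, 7.46 and 5.09 FPKM, and Atf3 the least even, at 4.21, 16.6 and 8.14 FPKM.

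**Figure D1:**
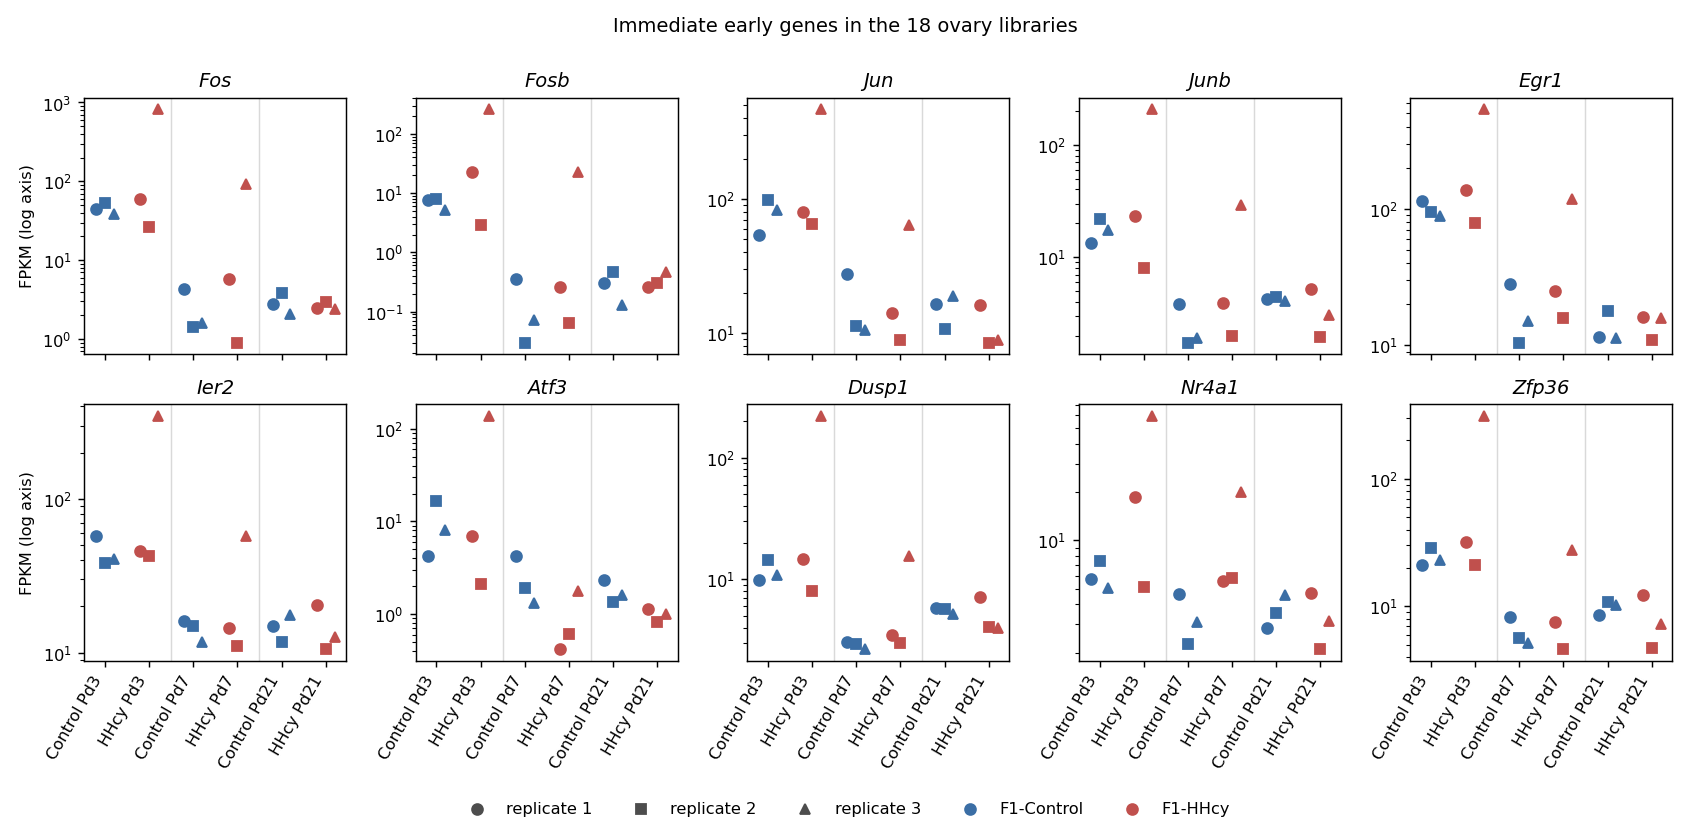
FPKM (log axis) of each immediate early gene in the 18 libraries; each point is 1 library, the marker shape gives the replicate and the colour the diet of the dam. Pd3 libraries lie above most Pd7 and Pd21 libraries, and F1-HHcy replicate 3 is the top point of its group at Pd3 and at Pd7 for all 10 genes.

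By Pd7 the genes were much lower in the F1-Control group, and for all 10 the F1-Control Pd7 libraries lay below every F1-Control Pd3 library. Fos was at 4.28, 1.41 and 1.58 FPKM, a log2 fold change of -3.85 ± 0.28 (SE, n = 3 and 3; adjusted p = 0.000142). Fosb was at 0.349, 0.03 and 0.0724 FPKM, the value of replicate 2 resting on 4 fragments, and the group means were 6.93 ± 1.47 at Pd3 and 0.15 ± 0.173 FPKM at Pd7 (SD), 46.1-fold apart. It reached 1 FPKM at Pd3 alone and entered the test only through that group, so its difference is given as a description. Fold changes were fitted on log2(FPKM + 1), which understates the change of low genes.

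Jun and Egr1 had smaller estimates than Fos and remained well expressed. Jun was at 27.4, 11.3 and 10.5 FPKM at Pd7 (log2 fold change -2.29 ± 0.34, adjusted p = 0.00431). Egr1 was at 28.0, 10.5 and 15.1 FPKM (-2.50 ± 0.29, adjusted p = 0.00117). Whether the falls differ between genes was not tested. Junb, at 3.82, 1.75 and 1.92 FPKM, changed by -2.43 ± 0.24 (adjusted p = 0.000591). Of the negative regulators, Dusp1 was at 3.03, 2.97 and 2.66 FPKM (-1.70 ± 0.16) and Zfp36 at 8.24, 5.64 and 5.20 FPKM (-1.80 ± 0.18). Ier2 was at 16.0, 14.8 and 11.7 FPKM (-1.61 ± 0.18) and Atf3 at 4.18, 1.93 and 1.31 FPKM (-1.52 ± 0.43), and Nr4a1 showed the smallest change of the 10, from a mean of 6.09 ± 1.23 to 3.34 ± 1.22 FPKM (-0.73 ± 0.22, adjusted p = 0.0575).

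A gene was called when its unadjusted p in limma was below 0.05 and its log2 fold change exceeded 0.58 in size, the criterion of the study's volcano plots. Without Fosb, 9 of 9 immediate early genes were called lower at Pd7 in F1-Control, against 7.77% of 13336 genes tested. With an adjusted p below 0.05 the count was 8 of 9, against 7.59%, and the groups did not overlap for 9 of 9, against 22.9%. The median log2 fold change was -1.80 for the 9 genes and -0.07 for all genes tested. Leaving out F1-Control Pd7 replicate 2 ended the call of Nr4a1. Erythroid and granulocyte markers were also lower at Pd7 than at Pd3, and F1-Control Pd7 replicate 1, which had the highest sums of both at Pd7, was the highest of its group for all 10 genes. F1-HHcy Pd3 replicates 1 and 2, with erythroid sums of 862 and 1108 FPKM and granulocyte sums of 8.89 and 8.61 FPKM, held 59.7 and 26.6 FPKM of Fos. The part of the blood cell markers in the fall was not tested.

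**Figure D2:**
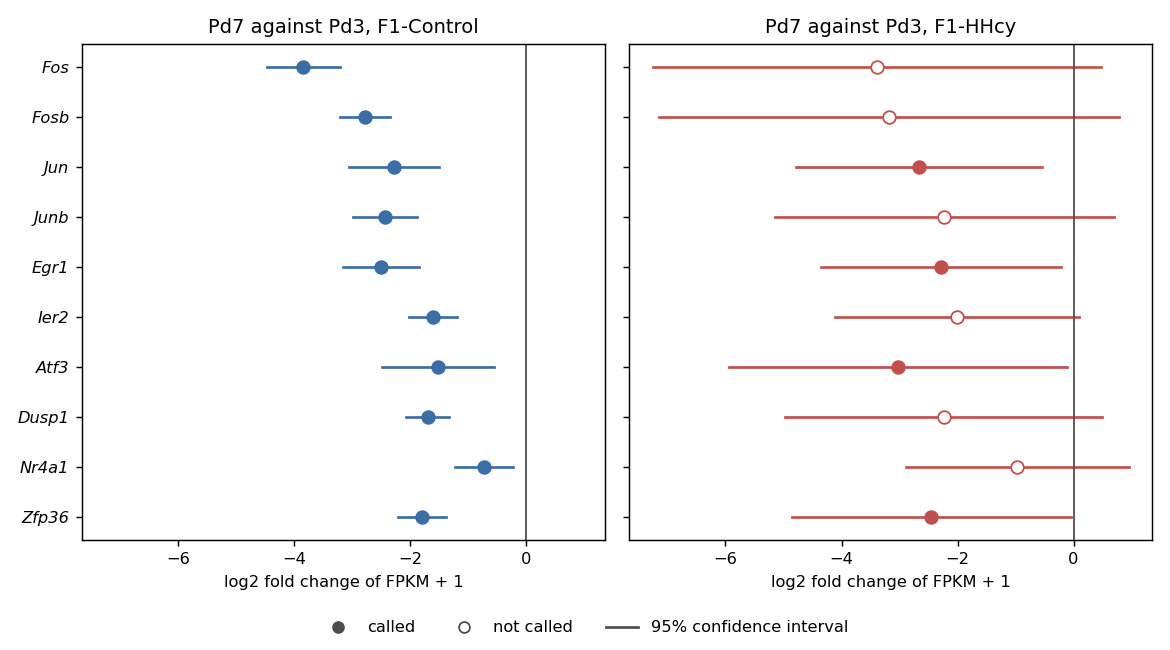
Log2 fold change of FPKM + 1 from Pd3 to Pd7 with its 95% confidence interval for the 10 genes, F1-Control on the left and F1-HHcy on the right; filled circles were called and open circles were not. All 20 estimates are below 0, and 4 are called in F1-HHcy, where the intervals are wider; Fosb in F1-Control entered the test only through its Pd3 levels.

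In the F1-HHcy group the same genes were also lower at Pd7 than at Pd3 on average, with far wider intervals. Of the 10, only Jun, Egr1, Atf3 and Zfp36 were called lower, against 5.36% of 13257 genes tested, and none had an adjusted p below 0.05 (lowest 0.151, highest 0.498). Jun, at 79.7, 65.4 and 467 FPKM at Pd3 and 14.2, 8.85 and 63.6 FPKM at Pd7, changed by -2.67 ± 0.90 (adjusted p = 0.151). Atf3 was at 6.98, 2.10 and 137 FPKM at Pd3 and at 0.415, 0.602 and 1.79 FPKM at Pd7, a change of -3.03 ± 1.24 (adjusted p = 0.199). These were the 2 genes whose groups did not overlap, against 16.1% of all genes. Fos, not called, had an estimate of -3.38 with an interval from -7.25 to 0.48. The calls moved with single libraries: without F1-HHcy Pd3 replicate 2 all 10 were called lower, without F1-HHcy Pd7 replicate 3 there were 7, without F1-HHcy Pd3 replicate 3 there were 2, and without F1-HHcy Pd7 replicate 1 or 2 there was 0. With the replicate number as a block, 10 of 10 were called. For these and all later fits with other settings or a library left out, the share of all genes called is not given. Such counts show how far the calls moved and cannot be set against a background.

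The diet comparison at Pd3 turned on 1 library. F1-HHcy Pd3 replicate 3 held the highest level of all 18 libraries for 10 of 10 genes. Fos was at 59.7, 26.6 and 818 FPKM in F1-HHcy Pd3 replicates 1 to 3, where F1-Control Pd3 spanned 38.4 to 53.6 FPKM. Fosb was at 22.3, 2.92 and 260 FPKM and Junb at 23.4, 8.03 and 206 FPKM. For these 3 genes replicate 1 lay above every control library, replicate 2 below every one and replicate 3 far above. The same held for Egr1 (138, 78.4 and 536 FPKM), Dusp1 (14.7, 7.99 and 219 FPKM) and Zfp36 (32.0, 20.9 and 310 FPKM). For Jun, given above, and Ier2 (45.8, 42.8 and 346 FPKM) replicates 1 and 2 lay within the control range. Nr4a1 was at 18.5, 5.13 and 59.3 FPKM, with replicate 2 inside the control range, and for Atf3 replicate 1 was inside it and replicate 2 below. Replicate 2 was the lowest of its group for 10 of 10 genes.

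None of the 10 genes was called in either direction at Pd3, while 5.0% of 13277 genes were called higher in F1-HHcy and 4.74% lower. All 10 estimates were positive, from 0.68 to 1.88, with a median of 1.12 against -0.03 for all genes. None of the 10 had an unadjusted p below 0.05 in limma (lowest 0.0751), and adjusted p ranged from 0.268 to 0.785. Nr4a1 came nearest, with a log2 fold change of 1.46 ± 0.71 (interval -0.19 to 3.11, adjusted p = 0.268), and Fosb had the largest estimate, 1.88 ± 1.29 (interval -1.12 to 4.88). For none of the 10 did the groups separate with F1-HHcy higher, against 11.8% of all genes. Without F1-HHcy Pd3 replicate 3 the estimates ran from -0.92 to 0.64, 4 positive and 6 negative, and none was called. Without F1-HHcy Pd3 replicate 2, Fosb, Junb, Egr1, Nr4a1 and Zfp36 were called higher, 5 of 10, with no share of all genes given for that fit. The intervals include both no change and differences of several fold.

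**Figure D3:**
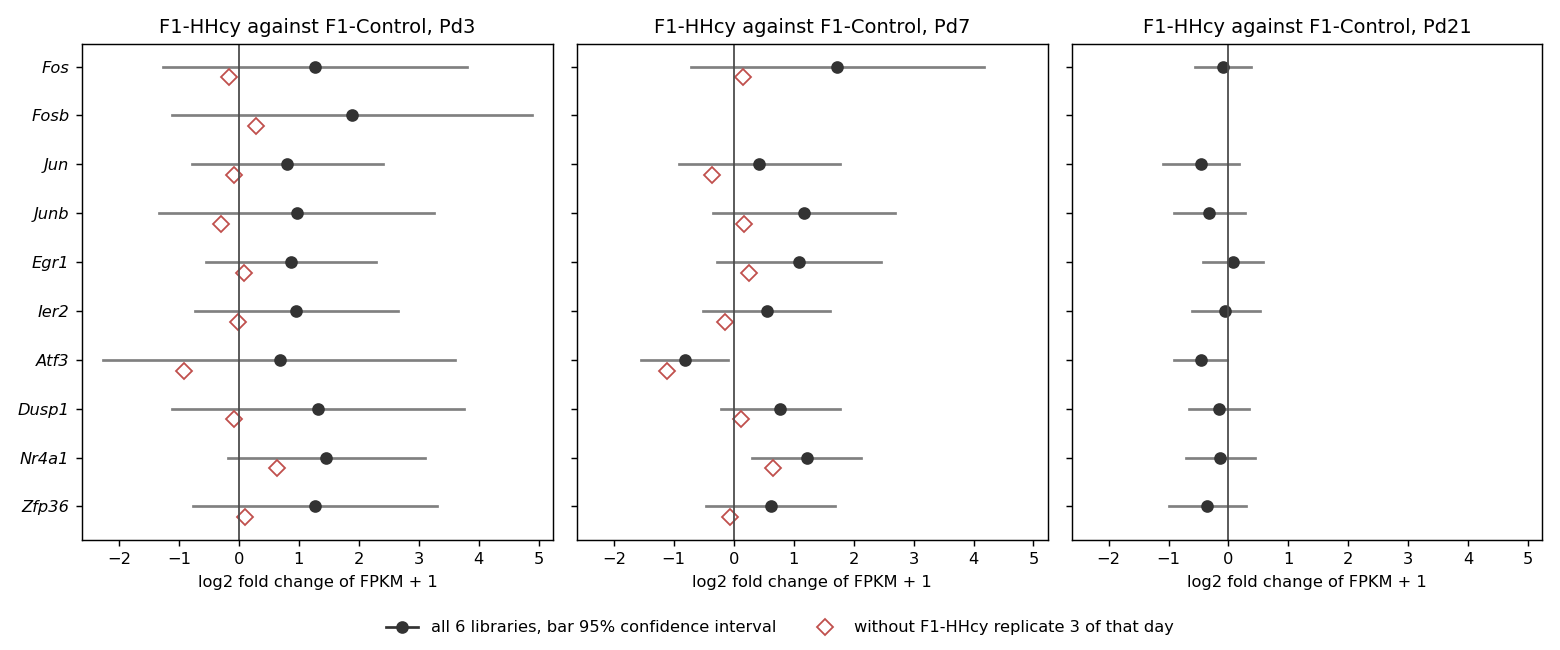
Log2 fold change of FPKM + 1, F1-HHcy against F1-Control, at Pd3, Pd7 and Pd21, with circles and 95% confidence intervals from all 6 libraries and open diamonds from the fit without F1-HHcy replicate 3 of that day. At Pd3 the median of the 10 circles is 1.12 and that of the diamonds -0.05; at Pd21 only the circles are drawn. Fosb was too low to be tested at Pd7 and Pd21.

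At Pd7 Nr4a1 was called higher and Atf3 lower in F1-HHcy, and neither had an adjusted p below 0.05. Nr4a1, the orphan nuclear receptor, was at 5.61, 5.81 and 20.1 FPKM in F1-HHcy Pd7 and at 4.66, 2.26 and 3.11 FPKM in F1-Control Pd7. Every F1-HHcy library lay above every control library, the log2 fold change was 1.22 ± 0.40, unadjusted p was 0.0135 and adjusted p 0.0768. Atf3, the stress-induced bZIP factor, was at 0.415, 0.602 and 1.79 FPKM against 4.18, 1.93 and 1.31 FPKM in F1-Control, a change of -0.82 ± 0.32 (unadjusted p = 0.0292, adjusted p = 0.119), and the groups overlapped. It reached 1 FPKM in 3 control libraries and 1 F1-HHcy library. Across alternatives the adjusted p ranged from 0.0316 to 0.241 for Nr4a1 and from 0.0181 to 0.544 for Atf3. Called higher was 1 of 9 genes tested against 9.06% of 13299 genes, called lower was 1 of 9 against 7.35%, and groups separated with F1-HHcy higher for 1 of 9 against 19.5%, so the shares were near the background. Fosb reached 1 FPKM in only 1 of these 6 libraries and was not tested.

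The remaining genes were called in neither direction at Pd7, and F1-HHcy Pd7 replicate 3 was the highest of its group for 10 of 10 genes. Fos was at 5.71, 0.902 and 93.5 FPKM in F1-HHcy Pd7, with a log2 fold change of 1.73 ± 1.09 (interval -0.71 to 4.17). Fosb was at 0.264, 0.0630 and 22.7 FPKM and Egr1 at 24.9, 15.8 and 118 FPKM. Replicate 3 lay far above every control library for these genes. For Fos replicate 1 also exceeded the controls and replicate 2 was below them. Junb (3.90, 2.00 and 29.2 FPKM), Dusp1 (3.47, 3.00 and 15.6 FPKM), Ier2 (14.5, 11.0 and 57.3 FPKM) and Zfp36 (7.59, 4.60 and 27.6 FPKM) also had replicate 3 above every control library. Without F1-HHcy Pd7 replicate 3 the 9 estimates ran from -1.12 to 0.66, and the calls of Nr4a1 and Atf3 remained. Without F1-HHcy Pd7 replicate 2, 7 of 9 genes were called higher and Atf3 was not called, with no share of all genes given for that fit. Without F1-Control Pd7 replicate 2 neither gene was called, without F1-Control Pd7 replicate 1 Atf3 lost its call, and without F1-HHcy Pd7 replicate 1 Atf3 lost its call and Dusp1 gained one. The replicate block, under which 4 of 9 were called higher, added Junb, Egr1 and Dusp1.

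At Pd21 the 10 genes lay below every F1-Control Pd3 library in both diets, a gap that cannot be told apart from batch. No diet difference was called. Levels spanned 2.06 to 3.86 FPKM for Fos, 8.50 to 19.0 FPKM for Jun and 10.9 to 17.8 FPKM for Egr1 over all 6 libraries. Dusp1 spanned 3.99 to 7.17 FPKM, Zfp36 4.72 to 12.2 FPKM and Ier2 10.5 to 20.3 FPKM. Fosb stayed between 0.129 and 0.467 FPKM and was not tested. Log2 fold changes of the 9 genes tested ran from -0.46 to 0.08, with a median of -0.16 against -0.01 for all genes. The interval ran from -0.56 to 0.38 for Fos and from -0.43 to 0.58 for Egr1. It reached further down for Jun, from -1.09 to 0.18, and for Junb, from -0.91 to 0.28. Lower levels of Jun and Junb in F1-HHcy were therefore not excluded. Atf3, at 1.12, 0.814 and 1.00 FPKM in F1-HHcy and 2.30, 1.34 and 1.60 FPKM in F1-Control, was the 1 gene whose groups did not overlap, against 8.61% of genes with F1-HHcy lower. Its change of -0.46 ± 0.19 (unadjusted p = 0.0399, adjusted p = 0.646) was smaller than the fold required. Called higher were 0.0824% and called lower 5.06% of 13350 genes. Without F1-HHcy Pd21 replicate 1, Jun, Junb and Zfp36 were called lower, and without F1-Control Pd21 replicate 2 Jun was.

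The diet effect was not shown to differ between days for any of the 10 genes. Tested as an interaction over all 18 libraries, 0 of 10 were called for Pd7 against Pd3, for Pd21 against Pd3 and for Pd21 against Pd7, where 10%, 13% and 15.3% of 14607 genes were. No unadjusted p in these 3 limma tests was below 0.05, and the lowest was 0.0694, for Nr4a1 between Pd21 and Pd3 (-1.59 ± 0.82, adjusted p = 0.361). Its interval ran from -3.33 to 0.14. Limma-voom called 0 of 10 as well. Without F1-HHcy Pd3 replicate 2, Fosb, Atf3, Dusp1, Nr4a1 and Zfp36 were called for Pd21 against Pd3 and Atf3 for Pd7 against Pd3.

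Variation among libraries of 1 group was large for these genes. The SD of log2(FPKM + 1) around the group means, over 12 degrees of freedom, had a median of 0.223 over 14607 genes and of 1.07 over the 10. Fosb (1.62) ranked 2nd and Fos (1.60) 3rd of all 14607 genes, Atf3 (1.27) 13th and Junb (1.22) 17th, and the lowest of the 10, Nr4a1 (0.83), ranked 89th. The spread was uneven over groups: the median SD of the 10 was 2.18 in F1-HHcy Pd3 and 1.32 in F1-HHcy Pd7, but 0.28 in F1-Control Pd3, 0.42 in F1-Control Pd7, 0.26 in F1-Control Pd21 and 0.42 in F1-HHcy Pd21, where all genes had medians of 0.13 to 0.21. Without F1-HHcy Pd3 replicate 3 the median SD of the 10 was 0.68, and without it and F1-HHcy Pd7 replicate 3 it was 0.49, still above the 0.210 of all genes. Ier2 (0.31) and Dusp1 (0.29) then came closest to that median.

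**Figure D4:**
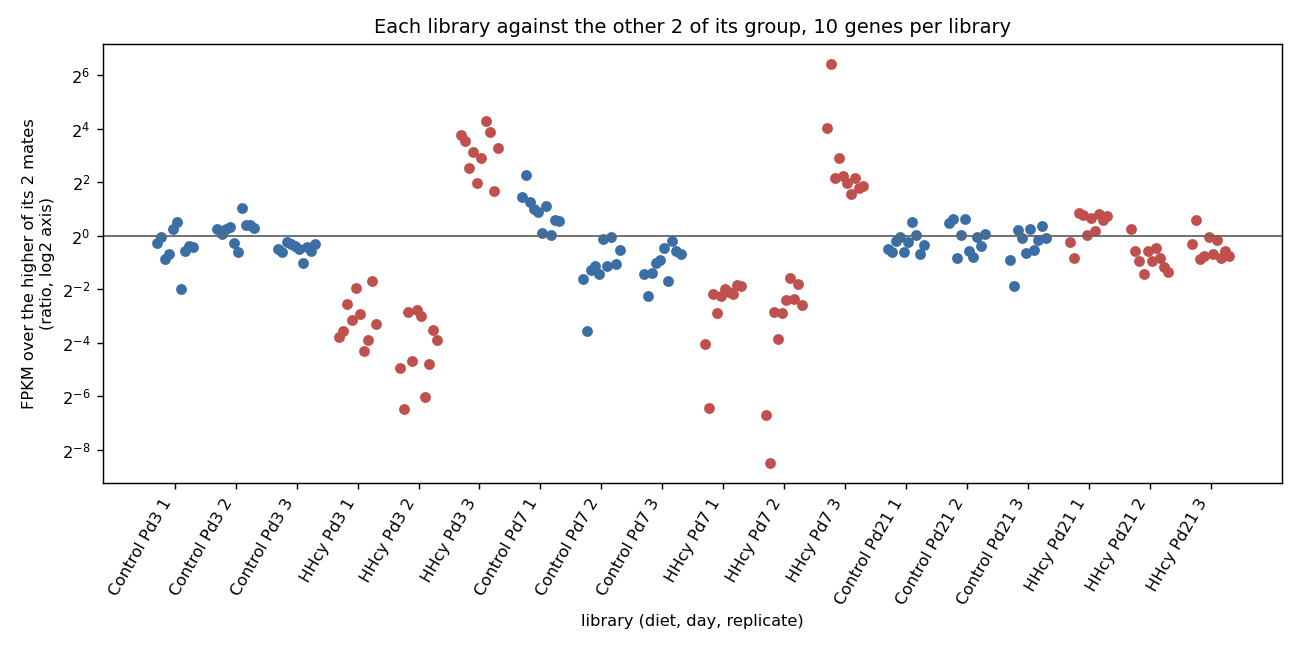
For each of the 18 libraries, the FPKM of the 10 genes divided by the higher of the other 2 libraries of the group (log2 axis); each point is 1 gene and the line marks a ratio of 1. F1-HHcy Pd3 replicate 3 lies 3.21 to 19.7-fold and F1-HHcy Pd7 replicate 3 2.97 to 85.9-fold above its mates.

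F1-HHcy Pd3 replicate 3 stood apart by 48 genes whose FPKM + 1 lay over 4-fold above both mates, 0.329% of the genes compared, and by 40 genes over 4-fold below both. On this scale, used for all counts of genes above both mates, 8 of the 10 immediate early genes were among the 48. In FPKM itself, Atf3 was 19.7-fold, Dusp1 14.9-fold and Fos 13.7-fold above the higher mate, and Nr4a1, with the smallest gap, 3.21-fold. The 10 genes together took 0.829% of its fragments, against 0.120% and 0.0679% in its mates. In F1-HHcy Pd7 replicate 3 10 genes lay over 4-fold above both mates in FPKM + 1, and 5 of them were Fosb, Fos, Junb, Egr1 and Jun, with Fosb and Fos ahead of all other genes on this scale. In FPKM itself Fosb was 85.9-fold, Fos 16.4-fold and Dusp1 4.48-fold above the higher mate. In the other 16 libraries no immediate early gene lay over 4-fold above both mates in FPKM + 1, while in FPKM itself Fosb did in F1-Control Pd7 replicate 1 (4.82-fold, at 0.349 FPKM).

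A few other genes high in these libraries were named after their values were seen. In F1-HHcy Pd3 replicate 3 the acute phase gene Serpina3a (74.0 FPKM against 0.977 and 0.913), the neutrophil chemokine gene Cxcl1 (258 against 6.12 and 2.80) and Ngp, a neutrophil granule gene (19.5 against 0.119 and 0.0721), had the largest gaps in FPKM + 1. In F1-HHcy Pd7 replicate 3 S100a9 (14.3 against 0.503 and 0.340 FPKM) and S100a8 (6.95 against 0.374 and 0.0759 FPKM) were among the first 5, followed by Ccn1 (72.4 against 13.2 and 9.53 FPKM). The granulocyte sum was 121 FPKM in F1-HHcy Pd3 replicate 3 and 21.6 FPKM in F1-HHcy Pd7 replicate 3, the highest of each group, and it was 238 to 928 FPKM in F1-Control Pd3. The erythroid sums of these libraries (780 and 430 FPKM) and mitochondrially encoded transcripts (6.98% and 6.02% of the summed FPKM) were not above both of their mates in either library. Granulosa markers summed to 430, 254 and 200 FPKM in F1-HHcy Pd3 replicates 1 to 3 and to 445, 430 and 729 in F1-HHcy Pd7. Not all markers followed these sums. Fst was at 21.9, 28.7 and 37.3 FPKM at Pd3. Fshr was at 9.61, 10.4 and 4.89 and Wnt4 at 20.7, 24.1 and 16.3 FPKM at Pd7. Smooth muscle markers summed to 229, 153 and 40.2 FPKM in F1-HHcy Pd3 and to 286, 334 and 359 in F1-HHcy Pd7. In the same order, theca and stroma markers summed to 615, 657 and 501, and to 725, 795 and 416. Germ cell markers summed to 691, 827 and 671, and to 491, 414 and 738. Here too single markers departed from the sums. Sohlh1 (18.7, 42.7 and 67.9 FPKM) and Nobox (42.4, 62.1 and 117) were highest in replicate 3 at Pd3, as were Ddx4, Dazl and Figla. Figla was lowest in replicate 3 at Pd7 (11.5, 9.90 and 9.55 FPKM). The part of these cell types or of tissue handling in the levels was not tested.

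Within groups the 10 genes moved together. Over the 18 libraries, the 45 pairwise correlations of their deviations from the group means ran from 0.72 to 0.98 with a median of 0.91, as a description of libraries that share a batch and a diet. Without F1-HHcy Pd3 replicate 3 the median was 0.84, and without it and F1-HHcy Pd7 replicate 3 it was 0.58, with a lowest value of -0.05. Within the 12 libraries of batch 1 the median was 0.93. Within the 6 libraries of batch 2, where the spread was small, the correlations ran from -0.77 to 0.97 with a median of 0.44.

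Among the genes outside the set whose deviations were most alike over 18 libraries, Dnajb4, a heat shock protein cochaperone, was first (r = 0.955 with the mean of the 10). Btg2, an antiproliferative immediate early gene (0.954), Ppp1r15a, a phosphatase subunit of the integrated stress response (0.95), and Ccn1, a secreted matricellular protein (0.921), followed. Mcl1, Spry2, Jund, Klf4, Smndc1 and Ddx54 completed the first 10. Btg2 was at 20.9, 23.2 and 226 FPKM and Ccn1 at 47.8, 36.4 and 210 FPKM in F1-HHcy Pd3 replicates 1 to 3. Leaving out F1-HHcy Pd3 replicate 3 put Sf3b4 first (0.939), and 4 of the earlier 10 remained, Dnajb4, Btg2, Ppp1r15a and Ccn1. Within batch 1 the first 10 shared 6 genes with that list, led by Mafk (0.981), and within batch 2 they shared 0.

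**Figure D5:**
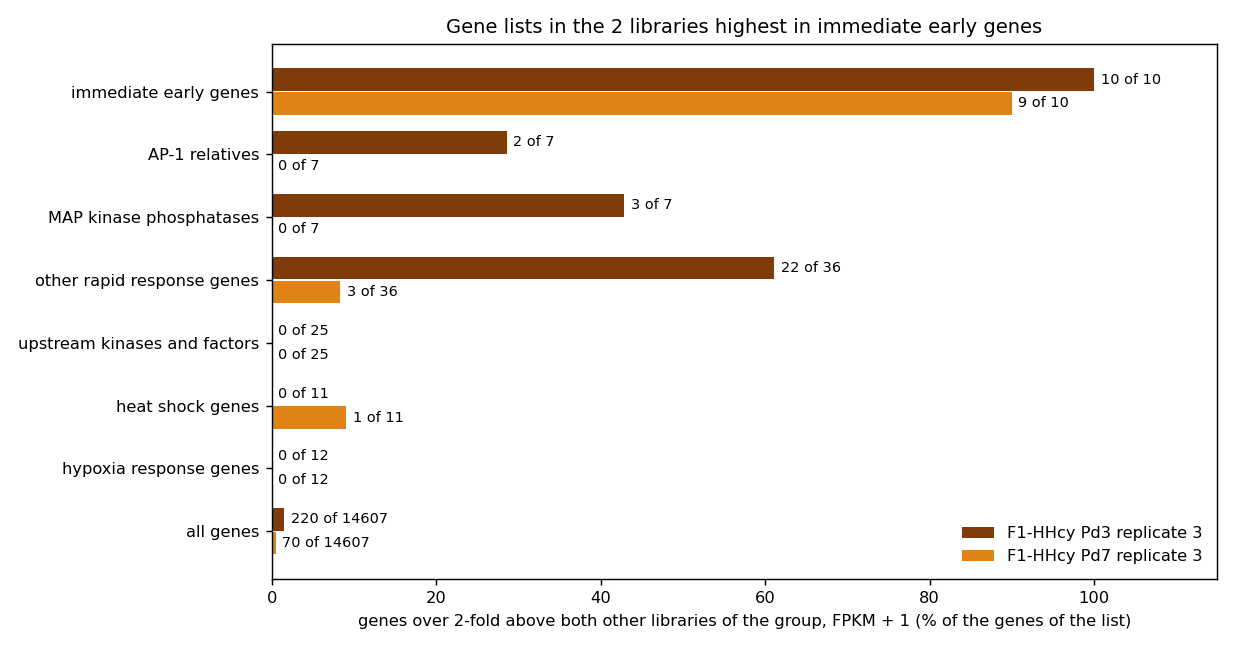
Share of each gene list, in percent of its genes with at least 1 FPKM in 3 or more libraries, whose FPKM + 1 lay over 2-fold above both other libraries of the group in F1-HHcy Pd3 replicate 3 and F1-HHcy Pd7 replicate 3. The immediate early genes reach 100% and 90.0%, other rapid response genes 61.1% and 8.33%, upstream kinases and factors 0% in both, and all genes 1.51% and 0.479%.

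Other rapid response genes were also high in these libraries. Of 36 expressed genes of this list, 22 lay over 2-fold above both mates in FPKM + 1 in F1-HHcy Pd3 replicate 3 and 3 (Btg2, Ccn1 and Ppp1r15a) in F1-HHcy Pd7 replicate 3. They were the highest of the group in 33 and 28 of 36 cases, against 40.5% and 47.6% of all genes. Of the 7 MAP kinase phosphatases, 7 were the highest of the group in the first library and 6 in the second. Dusp5, Dusp6 and Dusp8 lay over 2-fold above both mates in FPKM + 1 in the first and 0 in the second. There Dusp5 was at 5.26 FPKM against 2.29 and 2.29, over 2-fold in FPKM but not in FPKM + 1. Of the 7 AP-1 relatives, 4 were the highest of the group in each library. Jund (146 FPKM against 43.7 and 38.6) and Maff lay over 2-fold above both mates in FPKM + 1 in the first and 0 in the second. Of the Egr and Nr4a relatives only Nr4a2 reached 1 FPKM in 3 or more libraries, at 0.367 to 3.08 FPKM. Egr2 (0.328, 0.15 and 4.08 FPKM) and Egr3 (0.0801, 0.0742 and 6.2 FPKM in F1-HHcy Pd3 replicates 1 to 3) passed 1 FPKM in F1-HHcy Pd3 replicate 3 alone. None of 25 upstream kinases and factors, of which Mapk3 was the most abundant (67.4 to 148 FPKM), and none of 12 hypoxia response genes, of which Ddit4 was (24.4 to 71.1 FPKM), lay over 2-fold above both mates in either library. Heat shock genes differed between the libraries: in F1-HHcy Pd3 replicate 3, 2 of 11 were the highest of the group and Hspa8 (615 FPKM) was at its lowest of 18, while in F1-HHcy Pd7 replicate 3, 11 of 11 were the highest of the group, with Hsph1 over 2-fold above both mates; the shares of all genes highest of the group were 40.5% and 47.6%.

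The diet comparisons called a few genes of these lists, where 5.0%, 9.06% and 0.0824% of all genes were called higher and 4.74%, 7.35% and 5.06% lower at Pd3, Pd7 and Pd21. At Pd3, 6 of 36 other rapid response genes tested were called higher and 0 lower, led by the growth factor response gene Myc (21.7, 10.3 and 15.8 FPKM in F1-HHcy against 5.94, 6.00 and 5.44 in F1-Control; adjusted p = 0.0392), the Hippo pathway target Ccn2 (36.1, 12.9 and 21.6 against 5.39, 5.70 and 7.18 FPKM; adjusted p = 0.0411) and Ier5l (adjusted p = 0.112). Every F1-HHcy library of Myc and Ccn2 lay above every control library. At Pd7, Ccn2 (51.2, 52.7 and 53.8 against 11.8, 7.21 and 15.0 FPKM; log2 fold change 2.17 ± 0.22, adjusted p = 0.00129) and Myc (1.55 ± 0.29, adjusted p = 0.0115) were called higher and Gadd45b, a stress sensor, lower (7.99, 7.89 and 6.63 against 21.4, 19.2 and 12.8 FPKM; adjusted p = 0.00808), within 3 higher and 2 lower of 36. At Pd21 the 1 call among 35 genes was Cebpd, lower (-0.72 ± 0.21, adjusted p = 0.210). The list's most abundant gene, Zfp36l1, a homolog of Zfp36, ranged from 54.7 to 185 FPKM, and the median log2 fold change of the list was 0.51, -0.04 and -0.17 at Pd3, Pd7 and Pd21.

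In the remaining lists the calls were few. Of the MAP kinase phosphatases, Dusp9 was called lower at Pd3 (1.34, 2.12 and 4.86 against 10.9, 9.47 and 8.17 FPKM; adjusted p = 0.0453), and Dusp6 was called higher at Pd3 (adjusted p = 0.174). At Pd7 Dusp9 was at 0.501, 0.551 and 0.814 FPKM against 3.29, 2.61 and 2.13, and passed the filter only through the control group. Dusp7, the most abundant of that list, spanned 7.34 to 19.9 FPKM. Of the AP-1 relatives, Mafg was called higher at Pd7 (0.90 ± 0.26, adjusted p = 0.0515) and Jdp2, a repressor of AP-1, lower at Pd21 (-0.63 ± 0.18, adjusted p = 0.230), and of the Egr and Nr4a relatives none was called. Of 25 upstream kinases and factors 0 were called at Pd3 and Pd21, and Map2k7 (0.90 ± 0.23, adjusted p = 0.0343), Elk4 (adjusted p = 0.102) and Crtc1 (adjusted p = 0.134) were called higher at Pd7. Of 11 heat shock genes Hspb1 was called lower at Pd7 (adjusted p = 0.0354) and at Pd21 (-1.17 ± 0.17, adjusted p = 0.0119), and none was called at Pd3. Of 12 hypoxia response genes Egln3 was called higher at Pd3 (adjusted p = 0.182), 4 were called lower at Pd7, among them Car9 and Pdk1 (adjusted p = 0.0176 and 0.0221) and Ankrd37 (0.588, 0.523 and 0.726 against 1.59, 2.46 and 1.95 FPKM), which passed the filter only through the control group, and Slc2a1 and Egln3 lower at Pd21 (adjusted p = 0.182 and 0.249).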

How the data were processed

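Whole-ovary RNA was sequenced as poly-A selected, stranded libraries. The submitters' processing notes name GRCm38 (mm10), FastQC 0.11.9, Trimmomatic 0.39, STAR 2.7.9a, featureCounts 2.0.1 and DESeq2 1.36.0. The deposited values carry no unit and were read as FPKM, because a whole gene length and a whole library total turned them into whole fragments for 27294 of 27294 genes above 0 in at least 3 libraries (tolerance 0.02 fragments, growing with the count). Totals recovered in this way are the depths given, and intervals were taken from the spread between libraries.

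Each comparison was fitted with limma 3.58.1 (R 4.3.3, trend, moderated variance) on log2(FPKM + 1) in its 6 libraries, keeping genes that reached 1 FPKM in 3 or more of them, with Benjamini-Hochberg adjustment over all genes tested. Interactions used all 18 libraries and the 14607 genes that passed in 3 of 18. A call needed an unadjusted p below 0.05 together with a log2 difference larger than 0.58 either way. All 10 genes are named throughout; of each other list, the most abundant gene and, in each diet comparison, at most 3 called genes of smallest p are named, and the 10 genes most alike by Pearson correlation. The gene set and all lists were chosen with earlier results of these data known. The scripts were tested on simulated data. Columns of per-sample values left unused numbered 0.

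Replicates are separate samples by label only, so p-values measure the spread between these libraries, which may be partly technical. Equal replicate numbers deviated together between F1-Control Pd3 and Pd7 (correlations 0.134, 0.262 and 0.292 for replicates 1, 2 and 3), a hint from the data as the labels give no shared litter, and the replicate block left every call there in place. Alternatives covered the pseudocount, filter, block, scaling, library weights, a 1-model fit, limma-voom on recovered fragments and each library left out. Shares of all genes called are given for the main fits only, so counts from the alternatives have no background beside them.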

Additional observations from a re-analysis of the deposited data

How the results depend on the processing

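The fall from Pd3 to Pd7 in F1-Control held in direction in every alternative in which a gene was tested, with 8 to 10 called. These counts include Fosb wherever it was tested, although it passed the filter only through its Pd3 levels and adds no support. Fosb was not tested in the 3 fits without an F1-Control Pd3 library, where 9 of 9 genes were called. One model of all 18 libraries called neither Atf3 nor Nr4a1 in this comparison. The median was -2.33 to -1.72 with 1 library left out, taken over 10 genes with Fosb or over 9 where it was not tested. The diet estimates depended on single libraries. Left out in turn, they gave 0 to 5 genes called higher at Pd3 and a median of -0.05 to 1.98, with Fos at -0.17 to 2.27, Jun -0.08 to 1.33, Junb -0.30 to 1.96, Ier2 -0.02 to 1.47, Atf3 -0.92 to 1.82 and Dusp1 -0.08 to 2.22. At Pd7 they gave 0 to 7 higher, 0 to 1 lower and a median of 0.12 to 1.15, with Jun at -0.37 to 0.98, Ier2 -0.15 to 1.00 and Zfp36 -0.06 to 1.11. At Pd21 they gave 0 to 3 lower, with Fos at -0.25 to 0.08, Egr1 -0.03 to 0.28, Ier2 -0.30 to 0.14 and Nr4a1 -0.36 to 0.08. From Pd3 to Pd7 in F1-HHcy, 0 to 10 were called lower.

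For the difference of the diet effect between Pd7 and Pd3, leaving out 1 library gave 0 to 1 called lower, with Fos at -1.11 to 1.90, Fosb -1.85 to 1.19, Jun -1.19 to 0.51, Junb -0.79 to 1.47, Egr1 -0.61 to 1.01, Ier2 -1.11 to 0.57, Atf3 -2.64 to 0.10, Dusp1 -1.44 to 0.86, Nr4a1 -1.07 to 0.58 and Zfp36 -1.39 to 0.52. Between Pd21 and Pd3 it gave 0 to 5, with Fos at -2.36 to 0.08 and Atf3 -2.28 to 0.46, and between Pd21 and Pd7 Fosb at -2.21 to 0.03 and Ier2 -1.04 to 0.10. The median spread was 0.49 to 0.68 and 3 to 4 of the most alike genes were shared without the high libraries (the omission of both was chosen after seeing the data), against 6 within batch 1 and 0 within batch 2.

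Library quality weights turned the sign at Pd3 for Fos (-0.13), Fosb (-0.05), Junb (-0.23), Egr1 (-0.02) and Atf3 (-0.59), and at Pd7 for Jun (-0.16). They also turned the difference between Pd7 and Pd3 for Fosb (0.44), Ier2 (0.05), Dusp1 (0.24) and Nr4a1 (0.30), where a pseudocount of 0.1 gave Fosb 0.45 and limma-voom 1.13, and that between Pd21 and Pd3 for Fos (0.04), Fosb (0.24), Egr1 (0.21) and Atf3 (0.19). Median-ratio scaling put Ier2 at 0.01 at Pd21. One model of all 18 libraries called 1 gene higher at Pd3 (Nr4a1), 0 higher and 0 lower at Pd7 and 9 lower from Pd3 to Pd7 in F1-HHcy. An adjusted p below 0.05 left 0 higher and 0 lower at Pd7 and 0 lower in that F1-HHcy comparison. Without a filter there were 0 lower at Pd7 and 1 lower in F1-HHcy, where weights gave 8 and limma-voom 2. At Pd21 a pseudocount of 0.1 called 1 lower (Atf3) and weights 1 (Jun). The cause was not tested for any of these.

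The replicate block called 4 higher at Pd7, 10 lower from Pd3 to Pd7 in F1-HHcy and 1 lower (Nr4a1) for the difference between Pd21 and Pd3. Over all genes tested, correlations of same-numbered libraries were -0.2 to -0.137 at Pd3, -0.109 to 0.087 at Pd7 and -0.338 to -0.117 at Pd21. They were -0.021 to 0.123 in the F1-HHcy day comparison. For the immediate early genes, however, F1-HHcy replicate 3 was the highest of its group for 10 of 10 at Pd3 and at Pd7. F1-HHcy replicate 2 was the lowest for 10 at Pd3 and for 8 at Pd7. The labels give these samples no link beyond the number, and whether they share more was not tested.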
